A study of Mus musculus with 52 samples.

Results

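The 9 genes Bmp2, Bmp4, Id1, Id2, Id3, Msx1, Msx2, Smad6 and Bambi encode ligands, targets and feedback inhibitors of bone morphogenetic protein (BMP) signalling, and they were followed by RNA sequencing through a mouse embryo model grown from stem cells. They were picked by symbol from the 55291 genes of the count table, by a rule that uses no measured value but was set with earlier results of these data known. All 9 had counts in each of the 52 libraries, the lowest being 2, and all 9 passed the filter on low counts that left 25056 genes for testing. BMP ligands bind paired type I and type II receptors that phosphorylate SMAD1, SMAD5 and SMAD9, which enter the nucleus with SMAD4 and switch on targets such as the Id and Msx genes. In the mouse embryo around implantation, Bmp4 is made by the epiblast and then by extraembryonic ectoderm, Bmp2 is made by visceral endoderm, and BMP signals help to set up mesoderm and the germ line.

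All cells were labelled wild type (WT). Extended pluripotent stem cells (EPSCs) of 1 line, mc6-1/Mu-mClover3-10#, were kept in LCDM medium, and 1 line of embryonic stem cells (mESCs), 2i-0606-td-ES, was kept in 2i/L. A totipotency medium was given to EPSCs for 2 days (S1 cells) or for 25 passages (P25) and 38 passages (P38), and to mESCs for 2 days. Other EPSCs received, for 2 days, the GSK3 inhibitor CHIR-99021 (CHIR) alone or together with the HIV integrase inhibitor Elvitegravir, the MEK inhibitor PD0325901 or the retinoic acid receptor gamma agonist CD1530. The sources used here do not give the base medium of these arms, and LCDM by its published formula itself contains CHIR. Aggregates of S1 cells spent 1 day in a medium named 4C-64C (S2), and S2 aggregates 1 further day (S3). At S2 and S3 other groups lacked the cyclic AMP analogue 8Br-cAMP, the BET bromodomain inhibitor Birabresib, CHIR or CD1530. S5 aggregates had 3 days in a peri-implantation medium, whole or without Activin A, BMP4, FGF4 or the tankyrase inhibitor XAV939. They came from stage S4, which was not analysed here. The labels do not give which S1 cells were aggregated or whether an agent left out at S3 was also missing at S2.

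There were 26 groups of n = 2 libraries, counting the EPSCs as 2 groups: libraries 1 and 2, of a first set of 12 libraries with the 2-day EPSC treatments, and libraries 3 and 4, of a second set of 40. Libraries held 16.6 to 108.3 M counts. Pou5f1 and Nanog, which mark pluripotent cells, had counts in all groups, while Sox2 had none in any library of the first set. Levels are CPM, counts scaled by TMM-adjusted library size, given as the values of the 2 libraries or as mean ± SD. A gene rose or fell where its adjusted p was below 0.05 in edgeR's quasi-likelihood test, with Benjamini-Hochberg adjustment over all tested genes, and the log2 fold change had a size of 1 or more. Whether 2 libraries of 1 group were separate cultures is not labelled, so these p-values measure the spread between libraries, which may be technical. Where the summed level of markers of a cell type is given beside a result, its part in that result was not tested. Fewer cells of a type and less RNA per cell cannot be told apart in such bulk samples.

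Bmp4, Msx1 and Smad6 are shown with the 250 bases before their start because their upstream windows held no annotated exon and because Bmp4 and Msx1 gave the largest responses to single agents left out of a medium. The sequences are from RefSeq (GRCm38.p6, minus strand, printed 5′ to 3′), and the windows of 6 of the 9 genes were searched here. Capitals mark the SMAD-binding motifs GGAGCC and GTCT on either strand, where GGCTCC and AGAC are their reverse complements. The Bmp4 window was chr14:46390670-46390919, that of Msx1 chr5:37824586-37824835 and that of Smad6 chr9:64022060-64022309.
Bmp4: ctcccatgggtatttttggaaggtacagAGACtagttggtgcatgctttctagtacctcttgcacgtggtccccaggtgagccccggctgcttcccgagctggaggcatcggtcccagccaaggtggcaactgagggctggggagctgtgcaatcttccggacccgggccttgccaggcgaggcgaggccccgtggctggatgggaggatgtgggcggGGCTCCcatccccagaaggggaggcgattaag
Msx1: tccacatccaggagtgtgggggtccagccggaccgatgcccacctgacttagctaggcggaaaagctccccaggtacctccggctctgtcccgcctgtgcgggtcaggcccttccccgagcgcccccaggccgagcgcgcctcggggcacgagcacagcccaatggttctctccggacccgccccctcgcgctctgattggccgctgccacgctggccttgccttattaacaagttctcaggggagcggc
Smad6: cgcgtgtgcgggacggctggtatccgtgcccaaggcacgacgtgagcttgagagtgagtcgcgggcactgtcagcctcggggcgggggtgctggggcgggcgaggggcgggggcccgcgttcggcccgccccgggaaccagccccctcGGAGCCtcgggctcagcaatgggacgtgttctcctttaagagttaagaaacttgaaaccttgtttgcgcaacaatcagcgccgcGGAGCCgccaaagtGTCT
The Bmp4 window held 1 GGAGCC, 32 bases before the start, and 1 GTCT at 222 bases. The Smad6 window held 2 GGAGCC, at 102 and 18 bases, and 1 GTCT at 4 bases. The Msx1 window held none of the motifs searched. GGAGCC was present in 26.0% of 32851 RefSeq windows of this length and GTCT in 82.9%, so these letters are common. None of the 3 windows held GGCGCC (9.6% of windows), the retinoid receptor half-site AGGTCA (14.0%), the TCF motif CTTTGAT (3.2%) or the cyclic AMP response element TGACGTCA (1.5%), each searched on both strands.

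The 9 genes differed widely in how far their levels moved between groups. In mm10, Bmp4 lies at chr14:46383520-46390669, Bmp2 at chr2:133552159-133562885, Id1 at chr2:152736251-152737410, Id2 at chr12:25093799-25097140 and Id3 at chr4:136143497-136145755. Msx1 lies at chr5:37820485-37824583, Msx2 at chr13:53466884-53473074, Smad6 at chr9:63953076-64022059 and Bambi at chr18:3507923-3516404. All are protein-coding in GENCODE M21, and only Bmp4 shares exonic bases with another gene (4.0%, with Gm15217). The homeobox gene Msx1 had the widest range of group means, 641-fold, from 0.161 ± 0.0748 CPM in EPSC libraries 3 and 4 to 103 ± 1.54 CPM at S3 without 8Br-cAMP. Bmp2 ranged 213-fold, from 0.0872 ± 0.0306 CPM in mESCs to 18.6 ± 5.19 CPM at S5. Bambi, which encodes a pseudoreceptor that dampens BMP and TGF-beta signals, ranged least, 3.03-fold, from 5.78 ± 0.153 CPM in S1 to 17.5 ± 1.9 CPM at S5. For Bambi 22 of the 25 neighbouring pairs in the order of group levels overlapped, against 13 for Bmp2 and for Msx2, the fewest among the 9. Most neighbours therefore cannot be ranked for any of the 9 genes. Per kilobase of exon, Id1 had the highest median level over groups, 25.6 CPM per kb, followed by Id3 with 22.3, and Bmp2 had the lowest, 0.933.

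**Figure D1:**
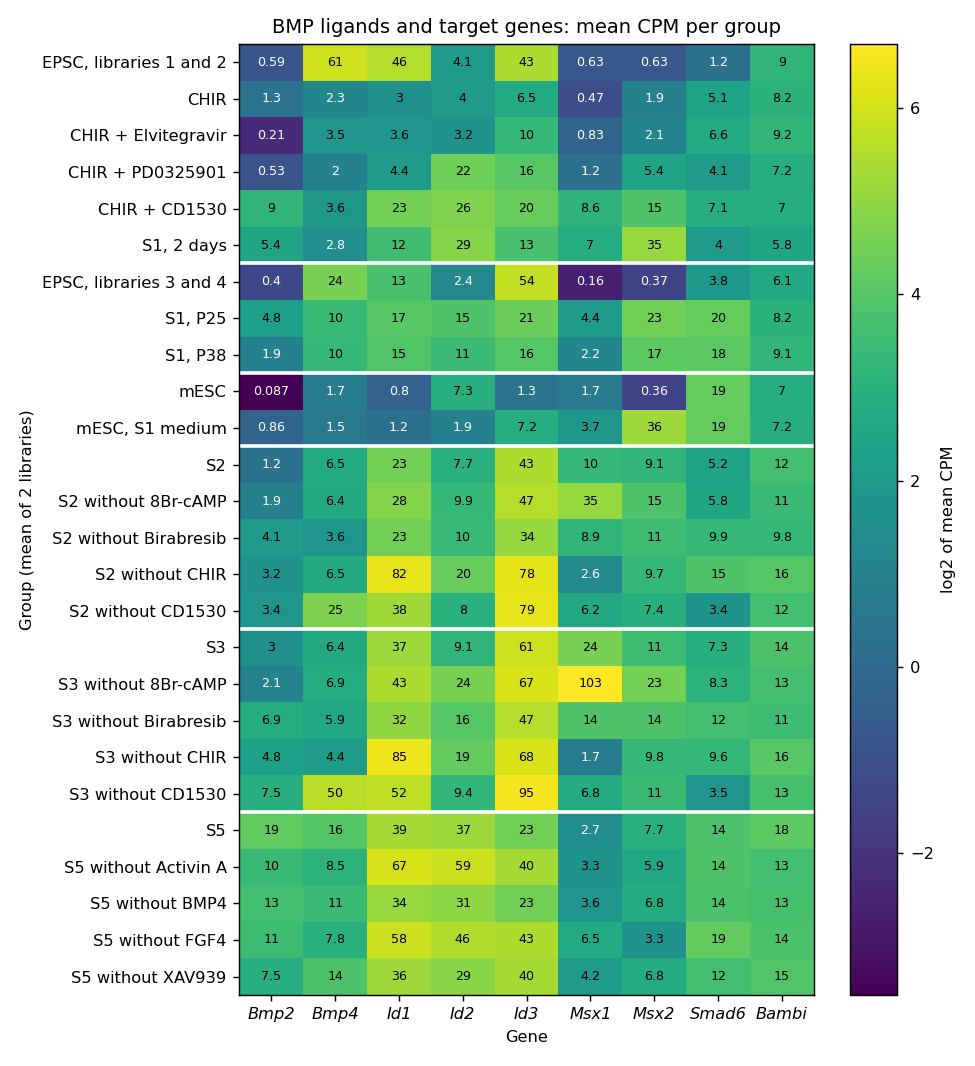
Mean CPM of the 9 genes (columns) in 26 groups (rows, 2 libraries each); colour is log2 of the mean CPM and the number in each cell is the mean CPM. Bmp4 was highest in EPSC libraries 1 and 2 (61.4 CPM), Msx1 at S3 without 8Br-cAMP (103 CPM) and Bmp2 at S5 (18.6 CPM).

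Within 2 days the totipotency medium lowered Bmp4, Id1 and Id3 in EPSCs and raised Bmp2, Id2, Msx1, Msx2 and Smad6. Thus 5 of the 9 genes rose and 3 fell, where 18.7% of all tested genes rose and 9.16% fell. With all 4 EPSC libraries pooled, 4835 of all genes rose and 5304 fell, in place of 4673 and 2295, so the balance of directions over all genes rests on the EPSC pair used. Bmp4 stood at 59 and 63.8 CPM in EPSCs and at 2.77 and 2.8 CPM in S1 (log2 fold change −4.46, SE 0.19, adjusted p = 6.9e-21), with no overlap. The other ligand, Bmp2, moved the opposite way, from 0.533 and 0.64 CPM to 5.5 and 5.21 CPM (3.19, SE 0.30). Id1, Id2 and Id3 encode helix-loop-helix proteins that hold back differentiation factors and are direct SMAD targets in many cells. Id1 went from 51 and 41.5 CPM to 12.5 and 10.9 CPM (−1.98, SE 0.17). Id3 went from 46.5 and 39.6 CPM to 14.1 and 12.7 CPM (−1.69, SE 0.17). The direction was reversed for Id2, which went from 4.44 and 3.84 CPM to 30.9 and 26.8 CPM (2.80, SE 0.19), so the 3 Id genes did not move together.

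Msx2, a homeobox target of BMP, went from 0.711 and 0.542 CPM in EPSCs to 35.6 and 34.4 CPM in S1, the largest rise among the 9 (5.79, SE 0.24, adjusted p = 2.2e-21). Msx1 went from 0.577 and 0.69 CPM to 7.39 and 6.71 CPM (3.48, SE 0.23). Both Msx genes were therefore low in all EPSC libraries and higher in both S1 libraries. Smad6, an inhibitory SMAD that BMP induces as feedback, went from 1.2 and 1.23 CPM to 3.77 and 4.14 CPM (1.70, SE 0.21). In the same step 6 of 8 pluripotency markers fell and 1 rose, from a sum of 2546 and 2651 CPM to 242.1 and 260.6 CPM. Trophoblast markers went from 60.88 and 63.7 CPM to 1235 and 939.6 CPM (5 of 9 rose), and visceral endoderm markers from 13.19 and 12.22 CPM, with Ttr at 0, to 51.57 and 55.07 CPM (7 of 12 rose). The Smad6 call was lost with all 4 EPSC libraries pooled (0.74), since EPSC libraries 3 and 4 had 3.78 and 3.79 CPM. Bambi stood at 8.79 and 9.29 CPM in EPSCs and 5.67 and 5.89 CPM in S1, short of the fold threshold (−0.64, SE 0.16, adjusted p = 0.0012). Of 52 other BMP pathway genes tested 19 rose and 4 fell. The transcription factor gene Gata2 went from 0.548 to 68.4 CPM (6.95, SE 0.27). The secreted antagonist genes Fst (42.6 to 2.78 CPM, −3.94, SE 0.18) and Grem1 (13.4 to 0.288 CPM, −5.50, SE 0.45) fell.

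**Figure D2:**
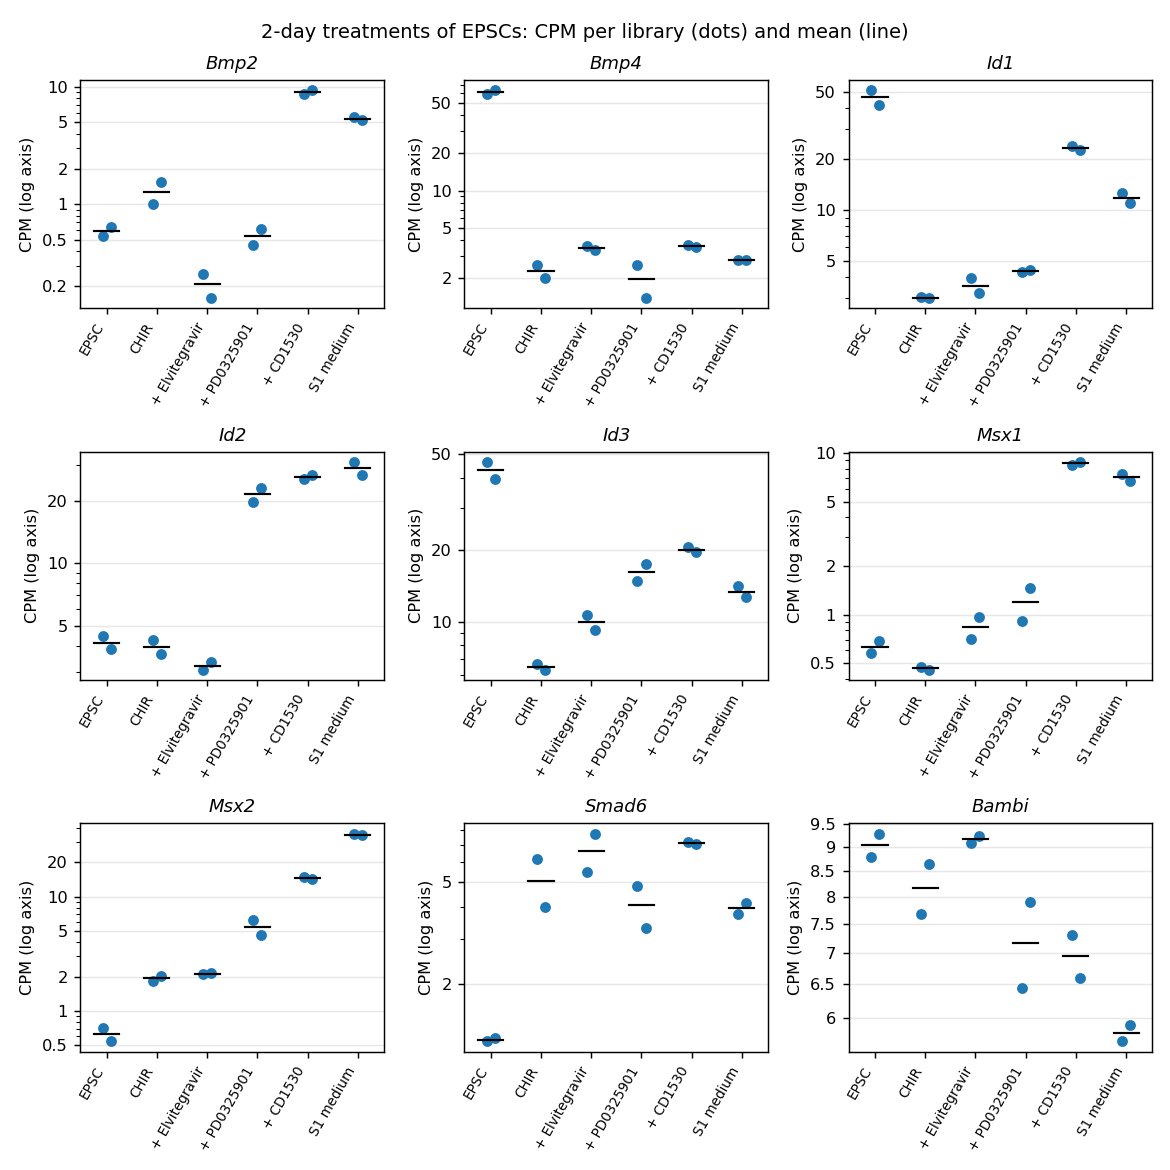
CPM of each gene (log axes, each with its own range) in EPSC libraries 1 and 2 and after 2 days in CHIR, CHIR with 1 further compound, or the totipotency medium (S1); dots are libraries and lines are means of 2. Bmp4 was 59 and 63.8 CPM in EPSCs and at most 3.71 CPM in any treated library, while Bmp2, Id1, Msx1 and Msx2 were higher with CD1530 than with CHIR alone.

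The fall of Bmp4 was present with CHIR alone. CHIR-treated cells had 2.54 and 2 CPM of Bmp4 (−4.74, SE 0.21, against EPSCs), 3.04 and 3.02 CPM of Id1 (−3.93, SE 0.20) and 6.68 and 6.33 CPM of Id3 (−2.72, SE 0.18). In this comparison 3 of the 9 genes rose and 3 fell, where 11.7% of all tested genes rose and 6.99% fell. The risen genes were Smad6, at 6.16 and 4.01 CPM (2.08, SE 0.22), Msx2, at 1.82 and 2.04 CPM (1.60, SE 0.28), and Bmp2, at 0.997 and 1.55 CPM (1.08, SE 0.34). The Bmp2 call was lost without CHIR library 2, without EPSC library 1 and with a newer edgeR option. Id2, at 4.25 and 3.66 CPM, overlapped its EPSC values (−0.06, SE 0.21). Other pathway genes rose in 10 cases and fell in 9, among them Bmp8b, another ligand (1.13 to 15.8 CPM; 3.80, SE 0.25), and Tbx3, a T-box factor gene (65 to 6.16 CPM; −3.36, SE 0.18). Visceral endoderm markers went from 13.19 and 12.22 CPM to 302.9 and 282.3 CPM with CHIR (10 of 12 rose) and feeder fibroblast markers from 287.3 and 261.9 CPM to 69.15 and 67.33 CPM (7 of 8 fell). The CHIR libraries differed from each other more than those of any other group, with a chi-square per degree of freedom of 66.95 over gene counts, and their pluripotency markers summed to 975.6 and 659.9 CPM. With the EPSC libraries pooled, 3226 of all genes rose and 4338 fell, in place of 2921 and 1752. The comparison shares its EPSC libraries with that of S1.

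CD1530 added to CHIR raised 6 of the 9 genes and lowered none, where 9.74% of all tested genes rose and 6.91% fell. All 6 calls held under each alternative run. Msx1 stood at 8.46 and 8.8 CPM with CD1530 against 0.477 and 0.457 CPM with CHIR alone (4.19, SE 0.25, adjusted p = 2.1e-16). Id1 stood at 24 and 22.6 CPM (2.94, SE 0.20), Msx2 at 14.8 and 14.3 CPM (2.92, SE 0.21) and Bmp2 at 8.71 and 9.37 CPM (2.86, SE 0.28). Id2, at 25.6 and 26.9 CPM (2.72, SE 0.20), and Id3, at 20.5 and 19.5 CPM (1.62, SE 0.18), rose as well, so all 3 Id genes and both Msx genes rose. Bmp4 stood at 3.71 and 3.58 CPM (0.66, SE 0.21, adjusted p = 0.01), short of the fold threshold. Beside this rise, 9 of 12 visceral endoderm markers rose, and their summed level was 2577 and 2592 CPM with CD1530 against 302.9 and 282.3 CPM with CHIR, with none of the 12 at 0 in either group. Trophoblast markers also rose, 7 of 9, from 104.8 and 83.79 CPM to 604.9 and 609.6 CPM, and 4 of 8 pluripotency markers fell, to 239.3 and 227.1 CPM. Mesoderm markers summed to 295 and 298.3 CPM against 28.59 and 21.73 CPM, with 4 of 9 risen, 3 fallen and Mesp1 at 0 with CD1530. Their part in the rise of the BMP genes was not tested. Of the other pathway genes 11 rose and 3 fell, with Tbx3 at 53.3 CPM (3.08, SE 0.18), Gata3, a GATA factor gene, at 3.23 CPM from 0.225 (3.82, SE 0.36), and Fst at 4.38 CPM from 42.6 (−3.29, SE 0.18).

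PD0325901 added to CHIR raised Id2, Msx2, Id3 and Msx1 and lowered Bmp2, where 3.27% of all tested genes rose and 1.24% fell. Id2 stood at 19.9 and 23.2 CPM against 4.25 and 3.66 CPM with CHIR (2.43, SE 0.20), Msx2 at 6.25 and 4.64 CPM (1.54, SE 0.21) and Id3 at 14.9 and 17.5 CPM (1.30, SE 0.18). Msx1 stood at 0.913 and 1.47 CPM (1.21, SE 0.29), a call lost without PD0325901 library 2. Bmp2 stood at 0.447 and 0.619 CPM (−1.31, SE 0.34), a call lost without CHIR library 2 or PD0325901 library 1. Id1, at 4.31 and 4.41 CPM, did not pass (0.52, SE 0.21, adjusted p = 0.11). The 2 PD0325901 libraries stood far apart, as the CHIR libraries did, with a chi-square per degree of freedom of 54.7 against 66.95 for CHIR. They held 107.0 and 23.9 M counts, and their pluripotency markers summed to 1918 and 1304 CPM (2 of 8 rose, none fell). Visceral endoderm markers moved the opposite way from the CD1530 arm, with 9 of 12 fallen and 1 risen and a summed level of 30.88 and 46.05 CPM. Ttr was at 0. Trophoblast markers rose in 6 of 9 cases, to 276.4 and 249.7 CPM, and 3 of 8 feeder fibroblast markers rose, to 145.2 and 106.9 CPM. Gata2 rose to 15.8 CPM from 1.7 (3.20, SE 0.23) among 5 risen and 2 fallen other pathway genes.

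Elvitegravir added to CHIR lowered 1 of the 9 genes, Bmp2, from 0.997 and 1.55 CPM to 0.256 and 0.16 CPM (−2.58, SE 0.43, adjusted p = 0.019), where 0.00399% of all tested genes fell and 0.00399% rose. That call rested on 14 counts against 90. Taken as 7 and 45 read pairs, they gave a ratio of 0.169 with a 95% counting interval of 0.0642 to 0.377. It was lost with halved counts, with DESeq2, with the newer edgeR option, with the libraries of the 2-day treatments alone, and on leaving out either Elvitegravir library or CHIR library 2. None of the 52 other pathway genes rose or fell in edgeR's test or with DESeq2, while 16 of them, and 18.1% of all genes, had an unadjusted p under 0.05.

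S1 was also set against 2 of the arms with 1 further compound. Against CHIR with PD0325901, S1 had 4 risen genes and none fallen, where 10.8% of all genes rose and 5.94% fell. They were Bmp2, Id1, Msx1 and Msx2, with Bmp2 at 5.5 and 5.21 CPM against 0.447 and 0.619 CPM. Against CHIR with CD1530, 1 gene rose and none fell, where 7.78% of all genes rose and 3.51% fell. That gene was Msx2, at 35.6 and 34.4 CPM against 14.8 and 14.3 CPM (1.27, SE 0.18, adjusted p = 4.2e-07). Id1 was lower in both S1 libraries, 12.5 and 10.9 CPM, than in both CD1530 libraries, 24 and 22.6 CPM, with an adjusted p = 1.1e-05 in edgeR's test but a fold short of the threshold. With the 2-day libraries fitted alone, and without S1 library 1 or CD1530 library 2, Id1 passed (−1.03 to −1.09). Of 12 visceral endoderm markers 10 were lower in S1 than with CD1530, at sums of 51.57 and 55.07 CPM against 2577 and 2592 CPM.

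mESCs entered with other levels of these genes and answered the totipotency medium otherwise than EPSCs did. Untreated mESCs had 1.8 and 1.66 CPM of Bmp4 against 24.1 and 23.7 CPM in EPSC libraries 3 and 4 (−3.79, SE 0.21). Id1 stood at 0.786 and 0.816 CPM against 14.1 and 12.6 CPM (−4.05, SE 0.25), and Id3 at 1.44 and 1.2 CPM against 55.2 and 51.8 CPM (−5.35, SE 0.23). Smad6 stood at 19.4 and 18.9 CPM against 3.78 and 3.79 CPM (2.34, SE 0.20), and Id2 at 6 and 8.57 CPM against 2.37 and 2.35 CPM (1.63, SE 0.24). In all 3 genes rose and 4 fell in mESCs against EPSCs, where 9.66% of all genes rose and 9.94% fell. The other risen gene, Msx1, had 114 counts against 6, which as 57 and 6 read pairs gave a ratio of 10.5 with a counting interval of 4.55 to 29.9. Bmp2 had 6 counts against 15, a ratio of 0.221 (0.0411 to 0.783) over 3 and 15 pairs. Its call was lost without mESC library 1 or EPSC library 4 and with the newer edgeR option. Markers of feeder fibroblasts summed to 2263 and 2153 CPM in mESCs and to 713.6 and 698.8 CPM in these EPSCs, with 4 of 8 higher, none lower and none at 0. Their part in these differences was not tested, and both reads of a pair appear to have entered the counts in mESCs but not in EPSC libraries 3 and 4.

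After 2 days of totipotency medium, Msx2 in mESCs went from 0.393 and 0.326 CPM to 36.4 and 36.4 CPM (6.66, SE 0.27, adjusted p = 3.2e-21). Id3 went from 1.44 and 1.2 CPM to 7.74 and 6.56 CPM (2.45, SE 0.23), while Id2 fell from 6 and 8.57 CPM to 2.49 and 1.4 CPM (−1.90, SE 0.21). Both Id genes thus moved opposite to their direction in EPSCs. Bmp2 rose on 78 against 6 counts, a ratio of 9.42 with a counting interval of 3.0 to 47.7 over 39 and 3 pairs. Msx1 went from 1.44 and 1.9 CPM to 3.05 and 4.42 CPM (1.14, SE 0.21), a call lost without mESC library 1 or treated library 2. In all 4 of the 9 genes rose and 1 fell, where 14.2% of all genes rose and 8.26% fell. Bmp4, already low at 1.8 and 1.66 CPM, was 1.8 and 1.14 CPM afterwards (adjusted p = 0.5), and Smad6 was 18.4 and 20.1 CPM (adjusted p = 1). Feeder fibroblast markers fell over the same 2 days from 2263 and 2153 CPM to 1029 and 1025 CPM (4 of 8 fell, 1 rose). Trophoblast markers rose from 114.5 and 107.5 CPM, with Elf5 at 0, to 341.2 and 336.1 CPM (7 of 9 rose, 1 fell). Besides these, 13 other pathway genes rose and 8 fell. Ski, a SMAD corepressor gene, went from 113 to 420 CPM (1.90, SE 0.10), and Dlx3, a homeobox gene, from 1.64 to 17.9 CPM (3.45, SE 0.22).

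The difference between the 2 responses was tested as a contrast of contrasts. It passed for 6 of the 9 genes, 3 with a higher response in mESCs and 3 with a lower one, where 8.7% and 9.97% of all genes did so. Higher in mESCs were Bmp4 (4.24, SE 0.30), Id3 (4.13, SE 0.29) and Id1 (2.49, SE 0.34), the 3 genes that fell in EPSCs. Untreated mESCs had mean levels of 1.73, 1.32 and 0.801 CPM of these 3, against 61.38, 43.07 and 46.29 CPM in EPSC libraries 1 and 2. Whether these low starting levels limited a fall in mESCs was not tested, and Id3 rose in mESCs (2.45). The response was lower for Id2 (−4.69, SE 0.28), Msx1 (−2.33, SE 0.32) and Smad6 (−1.69, SE 0.28), and that of Smad6 did not pass with the EPSC libraries pooled. Pooling also turned the balance over all genes, to 4297 higher and 2211 lower from 2181 and 2497. For Bmp2 the 2 responses were 3.21 in mESCs and 3.19 in EPSCs, and for Msx2 they were 6.66 and 5.79 (adjusted p = 0.11 for the difference). The 2 cell lines also differ in the set of libraries and in the medium they started from, which cannot be told apart from the line.

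**Figure D3:**
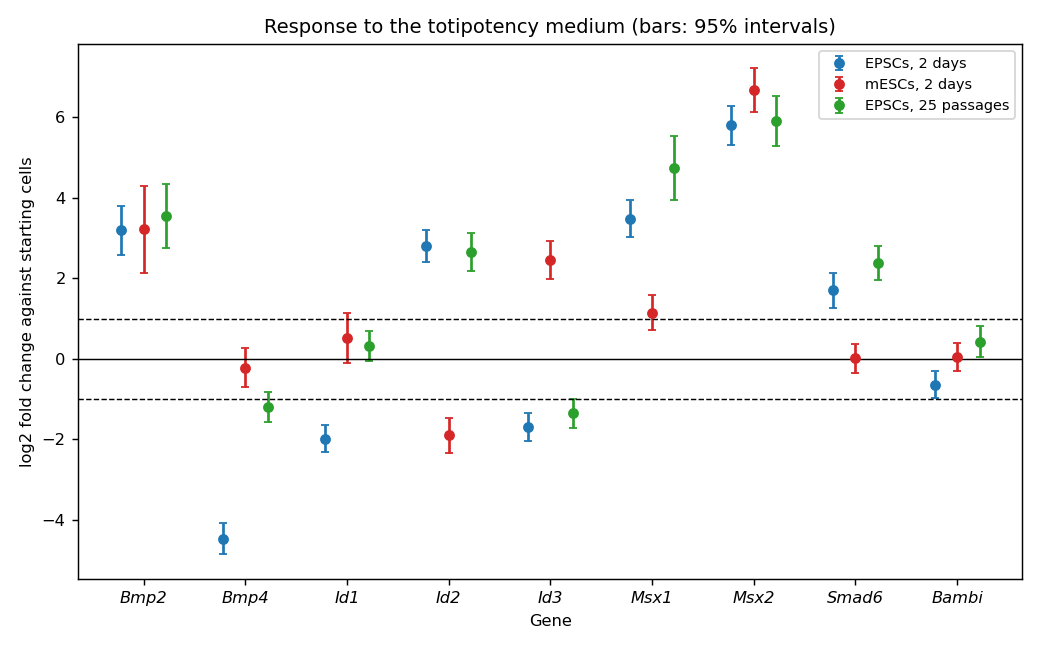
Log2 fold change of each gene against its starting cells for EPSCs after 2 days, mESCs after 2 days and EPSCs after 25 passages in totipotency medium; bars are 95% intervals, the solid line is 0 and dashed lines mark a log2 fold change of 1 in size. Msx2 lay above 5 in all 3 responses, whereas Bmp4 was at −4.46, −0.22 and −1.20.

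Long culture in the totipotency medium kept Bmp2, Id2, Msx1, Msx2 and Smad6 above EPSC libraries 3 and 4, and Bmp4 and Id3 below them. At P25, 5 of the 9 genes rose and 2 fell, where 13.2% of all genes rose and 5.5% fell. Bmp4 stood at 9.42 and 11.4 CPM against 24.1 and 23.7 CPM (−1.20, SE 0.18), a smaller fall than after 2 days. The difference of the 2 responses passed for Bmp4 (3.26, SE 0.26), Id1 (2.29, SE 0.25) and Bambi (1.07, SE 0.25), which is 3 genes higher and none lower, where 4.76% and 4.54% of all genes were so. Id1 and Bambi no longer passed with the EPSC libraries pooled (Id1 0.5, Bambi 0.51), and Bambi also not without P25 library 1. Smad6, at 0.67 (SE 0.30, adjusted p = 0.13), passed under the same pooling (2.31, adjusted p = 1.9e-06), where 4981 of all genes were higher and 2536 lower in place of 1193 and 1138. Id3 stood at 19.6 and 22.4 CPM against 55.2 and 51.8 CPM (−1.35, SE 0.18), and Id2 at 15.4 and 14.3 CPM against 2.37 and 2.35 CPM (2.65, SE 0.23). Smad6, at 20.5 and 18.7 CPM against 3.78 and 3.79 CPM (2.37, SE 0.21), reached its highest group mean here. Its values overlapped those of mESCs with and without totipotency medium, so this rank is not settled. Msx2 rose on 824 counts against 14 (ratio 60.1, counting interval 35.6 to 110), and Msx1 on 161 against 6 (27.4, 12.3 to 75.8). Of the other pathway genes 11 rose and 5 fell. Gata2 reached 137 CPM from 2.85 (5.59, SE 0.24). Feeder fibroblast markers summed to 1288 and 1278 CPM at P25 against 713.6 and 698.8 CPM in EPSC libraries 3 and 4 (2 of 8 rose, 1 fell). Trophoblast markers summed to 948.7 and 987.5 CPM at P25 against 110.8 and 116 CPM, with Elf5 at 0 in EPSCs (6 of 9 rose), visceral endoderm markers to 86.43 and 91.32 CPM against 19.53 and 16.78 CPM (9 of 12 rose), and pluripotency markers to 2258 and 2282 CPM against 4155 and 4132 CPM (5 of 8 fell).

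Between P25 and P38 only Bmp2 passed, at 1.74 and 2.13 CPM against 4.56 and 4.96 CPM (−1.29, SE 0.30, adjusted p = 0.01), where 0.307% of all genes fell and 0.0319% rose. With 1 library fewer in either group that call was lost, whichever of the 4 was left out. Msx1 stood at 1.74 and 2.68 CPM against 5.02 and 3.72 CPM and passed only without P25 library 2 (−1.17) or P38 library 2 (−1.32). The P38 libraries stood apart for Id3, with 10.5 and 21.4 CPM, and Id1, with 11.4 and 19.1 CPM. Feeder fibroblast markers summed to 434.2 and 726.5 CPM at P38 and to 1288 and 1278 CPM at P25, with 2 of 8 lower, none higher and none at 0. Their part in these values was not tested. No other pathway gene rose or fell in edgeR's test or with DESeq2, while 10 of 52, and 11.9% of all genes, had an unadjusted p under 0.05.

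The aggregates of S2 were compared with P25 cells. At S2 Id3 and Msx1 rose and Bmp2, Msx2 and Smad6 fell, where 4.69% of all genes rose and 11.4% fell. Smad6 stood at 4.87 and 5.45 CPM against 20.5 and 18.7 CPM (−1.93, SE 0.19), Bmp2 at 1.72 and 0.77 CPM against 4.56 and 4.96 CPM (−1.94, SE 0.30) and Msx2 at 9.33 and 8.86 CPM against 22.7 and 22.5 CPM (−1.31, SE 0.19). Id3, at 42.4 and 43.5 CPM (1.03, SE 0.17), did not pass with RLE or DESeq2 scaling or without P25 library 1. Msx1, at 9.79 and 10.2 CPM (1.18, SE 0.20), did not pass without P25 library 2. Id2, at 8.39 and 7.02 CPM against 15.4 and 14.3 CPM, was short of the fold threshold (−0.95, SE 0.19) and passed with RLE or DESeq2 scaling (−1.01 in both) or without S2 library 1 (−1.07). Feeder fibroblast markers fell from 1288 and 1278 CPM at P25 to 267.2 and 256.8 CPM at S2 (5 of 8 fell), trophoblast markers from 948.7 and 987.5 CPM to 332.9 and 316.3 CPM (6 of 9 fell, 1 rose) and visceral endoderm markers from 86.43 and 91.32 CPM to 45.26 and 47.54 CPM (7 of 12 fell). The counting of read pairs appears to differ between these groups, and the labels do not say that P25 cells were the source of the aggregates. Among other pathway genes 4 rose and 9 fell, with Gata2 at 5.55 CPM from 137 (−4.63, SE 0.21) and the ligand gene Bmp7 at 49.8 CPM from 20.8 (1.26, SE 0.13).

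From S2 to S3, Msx1 and Bmp2 rose, where 1.9% of all genes rose and 3.37% fell. Msx1 went to 26.6 and 21.3 CPM (1.27, SE 0.17, adjusted p = 1.3e-06). Bmp2 went to 3.78 and 2.26 CPM (1.28, SE 0.29), a call lost without S3 library 1 (0.8) or S2 library 2. Beside them 6 of 12 visceral endoderm markers rose, from a sum of 45.26 and 47.54 CPM to 127.6 and 133.7 CPM, and 4 of 8 feeder fibroblast markers fell. From S3 to S5, Bmp2, Id2 and Bmp4 rose and Msx1 and Id3 fell, where 14.1% of all genes rose and 8.5% fell. Bmp2 reached 14.9 and 22.2 CPM (2.62, SE 0.26), and Bmp4 went from 6.49 and 6.23 CPM to 14 and 17.4 CPM (1.30, SE 0.18). Id2 went from 10.5 and 7.66 CPM to 32.9 and 40.3 CPM (2.01, SE 0.18), while Id3 went from 63.4 and 58 CPM to 21.4 and 24.7 CPM (−1.39, SE 0.17). Msx1 fell to 2.81 and 2.65 CPM (−3.14, SE 0.19, adjusted p = 2.7e-16). Smad6, from 8.14 and 6.39 CPM to 13.8 and 14.7 CPM, lay at the threshold (0.97, SE 0.18) and passed with RLE or DESeq2 scaling, where its value was 1.02.

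Visceral endoderm markers changed with the same step, 11 of 12 rising and none falling, from a sum of 127.6 and 133.7 CPM at S3, where Afp was at 0, to 2828 and 4166 CPM at S5. Feeder fibroblast markers fell in 7 of 8 cases and rose in 1, from 170.1 and 182.9 CPM to 49.61 and 45.45 CPM. Library 2 of S5 was the higher of its pair both in the visceral endoderm sum and in Bmp2. It was also the higher in Bmp4, Id1, Id2, Id3, Smad6 and Bambi, and the lower in Msx1 and Msx2. The part of visceral endoderm cells in the Bmp2 level was not tested. Of the other pathway genes 13 rose and 6 fell. Hand1, a mesoderm and trophoblast factor gene, went from 0.137 to 49.5 CPM (8.47, SE 0.46), and Cer1, a secreted antagonist gene of anterior visceral endoderm, had 27.5 CPM at S5 and no count at S3. Nog, another antagonist gene, went from 0.24 to 7.98 CPM (5.04, SE 0.59).

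Leaving CD1530 out of the 4C-64C medium raised Bmp4 at both stages. At S2 it stood at 25.1 and 25.8 CPM without CD1530 against 6.41 and 6.6 CPM in full medium (1.97, SE 0.18, adjusted p = 7.2e-10), and at S3 at 49.3 and 50.8 CPM against 6.49 and 6.23 CPM (2.98, SE 0.18, adjusted p = 9.7e-15). Both calls held under each alternative run, and the other 3 omissions gave at most 7.41 CPM of Bmp4 at either stage. In the S2 comparison 2 of the 9 genes rose and none fell, where 0.718% of all genes rose and 1.61% fell. The second gene was Bmp2, at 2.97 and 3.92 CPM against 1.72 and 0.77 CPM (1.48, SE 0.29), a call lost without S2 library 2. At S3 2 genes rose and 2 fell, where 1.97% of all genes rose and 3.82% fell. Besides Bmp4 these were Bmp2, at 6.98 and 7.94 CPM (1.31, SE 0.25), Msx1, at 7.07 and 6.62 CPM (−1.81, SE 0.18), and Smad6, at 2.75 and 4.33 CPM (−1.03, SE 0.19). The Bmp2 call was lost without S3 library 2, and that of Smad6 without library 1 of either group. Id3, at 88.9 and 100 CPM against 63.4 and 58 CPM, was higher in both libraries but short of the fold threshold (adjusted p = 0.004). At S3 without CD1530, 5 of 9 mesoderm markers rose and none fell, from a sum of 70.54 and 64.52 CPM to 136.2 and 141.2 CPM, with Mesp1 at 0. At S2 without CD1530, 3 of 9 rose and none fell, from 38.42 and 36.18 CPM to 111.6 and 116.5 CPM. Trophoblast markers at S3 went from 511.2 and 480.9 CPM to 914.5 and 956 CPM (4 of 9 rose, none fell). Pluripotency markers at S3 went from 1701 and 1590 CPM to 2243 and 2315 CPM (3 of 8 rose, none fell). At S2 they went from 1813 and 1750 CPM to 2407 and 2439 CPM (2 of 8 rose, none fell). Fst rose at both stages, to 32 CPM from 12.4 (1.37, SE 0.17) and to 40.7 CPM from 13.1 (1.63, SE 0.16).

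**Figure D4:**
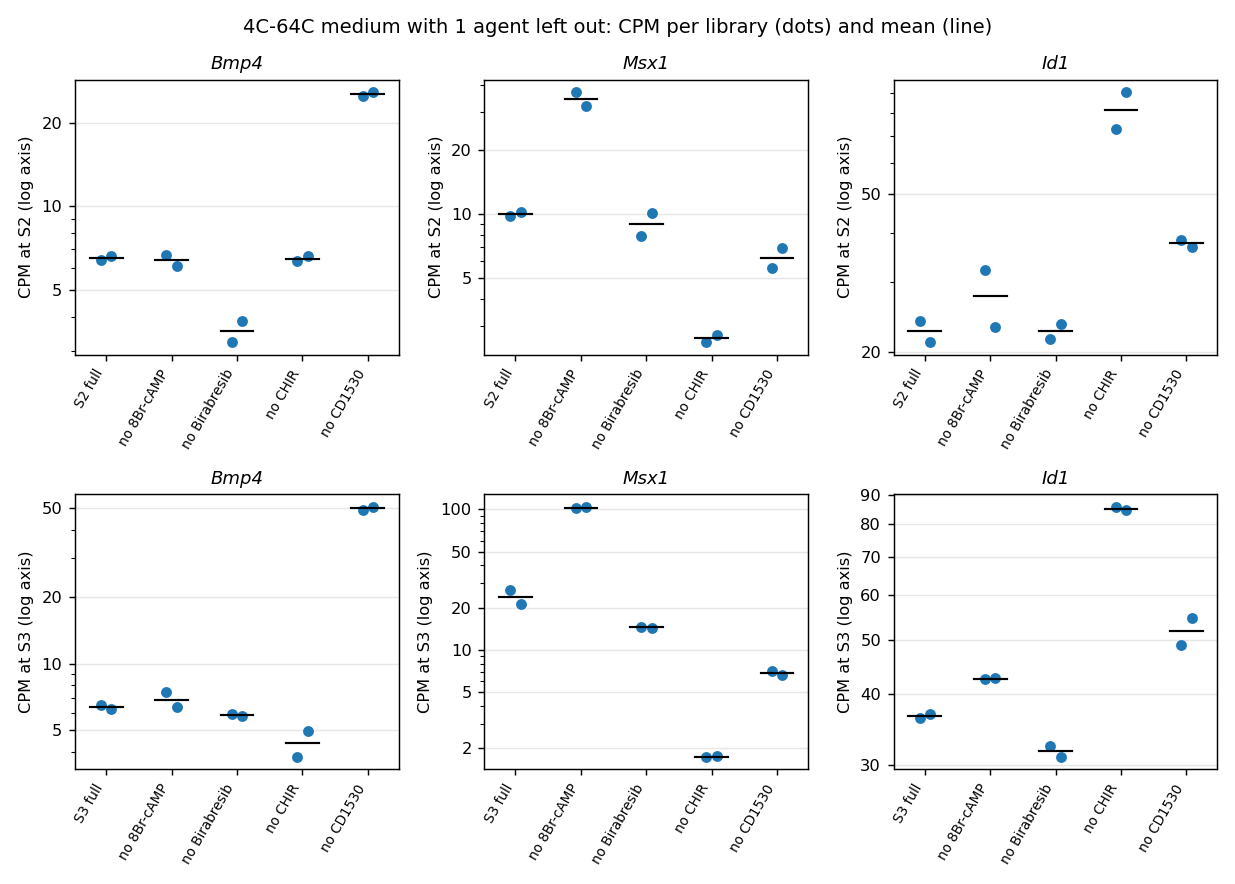
CPM of Bmp4, Msx1 and Id1 (log axes, each with its own range) at S2 (top) and S3 (bottom) in full 4C-64C medium and with 1 agent left out; dots are libraries and lines are means of 2. Bmp4 was high without CD1530 (25.1 and 25.8 CPM at S2, 49.3 and 50.8 at S3), Msx1 was high without 8Br-cAMP and low without CHIR, and Id1 was high without CHIR.

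Leaving out CHIR raised Id1 and Id2 and lowered Msx1 at both stages. Id1 stood at 72.8 and 90.3 CPM against 24 and 21.2 CPM at S2 (1.85, SE 0.17) and at 85.7 and 84.6 CPM against 36.3 and 37 CPM at S3 (1.22, SE 0.16). Msx1 stood at 2.51 and 2.71 CPM against 9.79 and 10.2 CPM at S2 (−1.93, SE 0.20) and at 1.74 and 1.75 CPM against 26.6 and 21.3 CPM at S3 (−3.78, SE 0.20, adjusted p = 5.3e-17). Thus an Id gene and an Msx gene, both textbook BMP targets, moved apart in the same libraries. Id2 stood at 20.4 and 19.9 CPM at S2 (1.39, SE 0.18) and at 17.8 and 20 CPM at S3 (1.06, SE 0.18), and the S3 call was lost without library 2 of either group. At S2, Smad6 also rose, to 13.8 and 15.8 CPM (1.52, SE 0.19), as did Bmp2, to 3.1 and 3.28 CPM (1.36, SE 0.29), though not without S2 library 2. In all 4 genes rose and 1 fell at S2, where 2.86% of all genes rose and 2.22% fell, and 2 rose and 1 fell at S3, where 5.04% rose and 4.11% fell. Bmp7 fell at both stages, to 19 CPM from 49.8 (−1.39, SE 0.13) and to 12.1 CPM from 43.5 (−1.84, SE 0.13), and Hand1 rose to 8.49 CPM from 0.137 at S3 (5.93, SE 0.48). Visceral endoderm markers summed to 539 and 561.5 CPM at S3 without CHIR against 127.6 and 133.7 CPM, with 8 of 12 risen, none fallen and Apoa1 at 0. Trophoblast markers summed to 1179 and 1167 CPM against 511.2 and 480.9 CPM at S3 (5 of 9 rose, 1 fell). At S2 they summed to 718.5 and 752.9 CPM against 332.9 and 316.3 CPM (4 rose, 1 fell). Pluripotency markers summed to 2504 and 2494 CPM against 1701 and 1590 CPM at S3 (3 of 8 rose, none fell). At S2 they summed to 2206 and 2458 CPM against 1813 and 1750 CPM (3 of 8 rose, none fell).

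Leaving out 8Br-cAMP raised Msx1, to 37.1 and 32 CPM at S2 (1.79, SE 0.18) and to 102 and 104 CPM at S3 (2.10, SE 0.17, adjusted p = 6.7e-12). At S2 no other gene of the 9 passed, where 0.643% of all genes rose and 1.28% fell, and without S2 library 1 Bmp2 passed as well (1.31). At S3 3 genes rose, where 2.83% rose and 3.8% fell. Id2 stood at 24 and 23.6 CPM against 10.5 and 7.66 CPM (1.39, SE 0.18), and Msx2 at 22.2 and 24.6 CPM against 11.4 and 11.3 CPM (1.04, SE 0.18), a call lost without omission library 2. Bmp4, Id1 and Id3 did not pass at either stage. At S3 without 8Br-cAMP, visceral endoderm markers summed to 40.34 and 41.12 CPM against 127.6 and 133.7 CPM (6 of 12 fell, Apoa1 at 0). Trophoblast markers summed to 248.6 and 273.3 CPM against 511.2 and 480.9 CPM (3 of 9 fell, 1 rose, Elf5 at 0) and pluripotency markers to 969.8 and 989.9 CPM against 1701 and 1590 CPM (2 of 8 fell, 1 rose).

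Leaving out Birabresib raised Bmp2, to 3.62 and 4.5 CPM at S2 (1.71, SE 0.29), where 2.85% of all genes rose and 0.128% fell, and to 7.47 and 6.28 CPM at S3 (1.19, SE 0.25), where 5.75% rose and 0.459% fell. The S3 call was lost without S3 library 2 (0.87). Smad6 was higher in both omission libraries at each stage, 8.95 and 10.9 CPM at S2 and 12.3 and 12.3 CPM at S3, but short of the fold threshold. At S2 it passed without S2 library 2 (1.02) or omission library 1 (1.08), and Bmp4 passed without omission library 2 (−1.01). Id2 at S3, 16 and 16.1 CPM against 10.5 and 7.66 CPM, was short of the fold threshold (0.83, SE 0.18) and passed without S3 library 1 (1.06). No other gene of the 9 passed at either stage in the fit of all libraries. At S3 without Birabresib, trophoblast markers summed to 871.7 and 890.4 CPM against 511.2 and 480.9 CPM (3 of 9 rose, none fell). Visceral endoderm markers summed to 186.8 and 196.9 CPM against 127.6 and 133.7 CPM (3 of 12 rose, none fell). Of the 52 other pathway genes 5 rose and none fell at S3, and 1 rose and none fell at S2. The 4 omissions at a stage share the 2 libraries of full medium. Against the mean of the 4 on the log2 scale, omissions had a lower Msx1 than full S3 medium (−1.05, SE 0.13), where 1.37% of all genes were higher and 1.28% lower in the omissions. On the CPM scale the direction was the opposite, 31.5 CPM over the 8 omission libraries against 24 CPM, since the single omissions lay on both sides of full medium. The Msx1 call was lost without S3 library 1 (−0.89), where Bmp2 (1.07) and Id2 (1.07) passed instead.

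None of the 9 genes passed when BMP4 was left out of the S5 medium, where 0.016% of all genes rose and 0.0399% fell. Of the 9, 4 had an unadjusted p under 0.05 in edgeR's test, and DESeq2 also called none. Id1 stood at 33.8 and 34.9 CPM without BMP4 against 32.2 and 46.2 CPM with it (−0.19, 95% interval −0.52 to 0.14). Id3 stood at 21.4 and 24.4 CPM against 21.4 and 24.7 CPM (−0.01, −0.35 to 0.33), and Id2 at 31.3 and 31.3 CPM against 32.9 and 40.3 CPM (−0.23, −0.57 to 0.12). Smad6 stood at 13.3 and 14.3 CPM against 13.8 and 14.7 CPM (−0.05, −0.40 to 0.31), and Msx2 at 7.43 and 6.11 CPM against 8.84 and 6.66 CPM (−0.19, −0.57 to 0.18). For these 5 targets the interval held 0 and ended within a log2 fold change of 1, while those of Bmp4, Bmp2, Msx1 and Bambi excluded 0. The intervals use a spread estimated over all groups. Libraries of full S5 medium had a chi-square per degree of freedom of 13.17, against 2.86 without BMP4. The cells' own Bmp4 transcript was 11.8 and 9.58 CPM against 14 and 17.4 CPM (−0.55, −0.90 to −0.20, adjusted p = 0.19), and Bmp2 was 12.7 and 12.5 CPM against 14.9 and 22.2 CPM (−0.56, −1.03 to −0.09, adjusted p = 0.43). Msx1 was 3.85 and 3.4 CPM against 2.81 and 2.65 CPM (0.41, 0.01 to 0.81), and Bambi 12.6 and 13.7 CPM against 16.2 and 18.9 CPM (−0.42, −0.75 to −0.09). Of 52 other pathway genes none rose or fell in edgeR's test or with DESeq2, while 8 of them, and 8.94% of all tested genes, had an unadjusted p under 0.05. Over all genes 14 passed, and this count was 0 without S5 library 2 and 108 without S5 library 1.

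**Figure D5:**
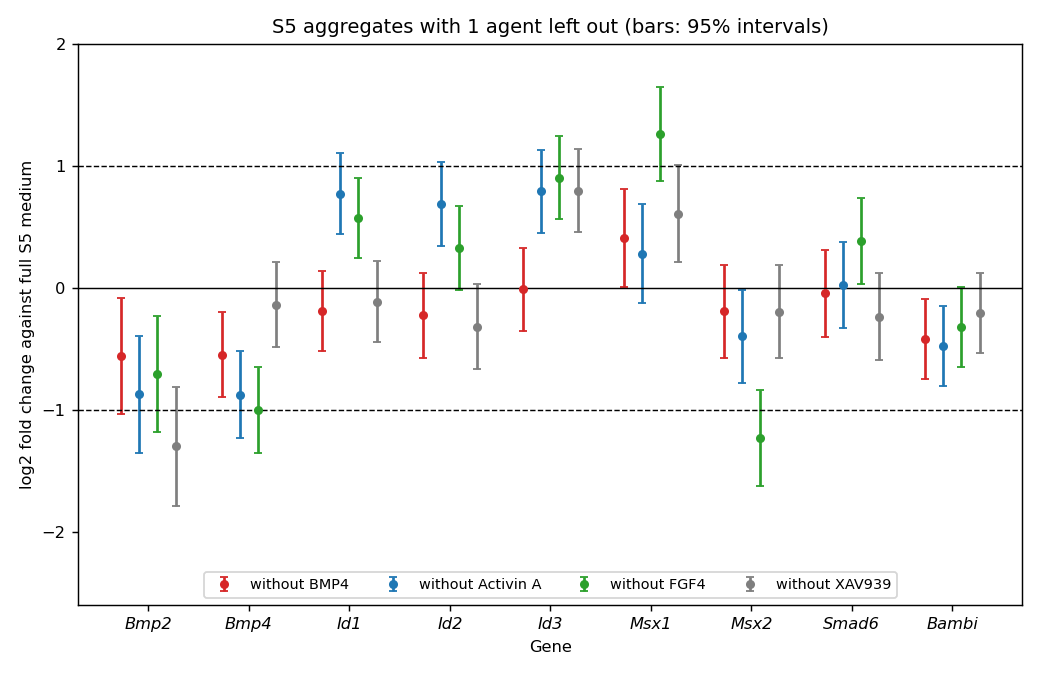
Log2 fold change of each gene at S5 with BMP4, Activin A, FGF4 or XAV939 left out, against full peri-implantation medium; bars are 95% intervals and dashed lines mark a log2 fold change of 1 in size. Without BMP4 the 9 values lay between −0.56 and 0.41, and the 4 comparisons share the 2 full-medium libraries.

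The other omissions at S5 gave larger values for several of these genes. Without Activin A none of the 9 passed, where 0.407% of all genes rose and 0.714% fell. Of the 9, 7 had an unadjusted p under 0.05, as had 11.9% of all genes, and DESeq2 called none. Id1 stood at 63.2 and 70.8 CPM, Id2 at 57.1 and 60.5 CPM and Id3 at 41 and 38.8 CPM, each above both full-medium libraries but short of the fold threshold. Without S5 library 2 Id1 passed (1.06), and without S5 library 1 Bmp2 (−1.13) and Bmp4 (−1.02) passed. Other pathway genes changed without Activin A, 4 rising and 4 falling, with Fst at 42.9 CPM from 7.32 (2.55, SE 0.17) and Cer1 at 2.82 CPM from 27.5 (−3.29, SE 0.45). Mesoderm markers summed to 311.8 and 282.2 CPM without Activin A against 170.5 and 136.8 CPM (2 of 9 rose, 1 fell). Trophoblast markers summed to 387 and 348 CPM against 638 and 585.7 CPM (2 of 9 fell, none rose).

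Without FGF4, Msx1 rose and Msx2 and Bmp4 fell, where 2.12% of all genes rose and 2.53% fell. Msx1 stood at 5.66 and 7.42 CPM against 2.81 and 2.65 CPM (1.26, SE 0.19), and Msx2 at 2.61 and 3.96 CPM against 8.84 and 6.66 CPM (−1.23, SE 0.19), so the 2 Msx genes moved apart. The Msx2 call was lost without omission library 1 (−0.97). Bmp4, at 6.91 and 8.71 CPM, lay at the threshold (−1.0, SE 0.17). Its call was lost with RLE size factors, with halved counts, with DESeq2, with the newer edgeR option, and without omission library 1 or S5 library 2. Hand1 fell to 7.21 CPM from 49.5 (−2.78, SE 0.30) among 2 risen and 7 fallen other pathway genes. Without XAV939, Bmp2 fell to 6.99 and 8.08 CPM from 14.9 and 22.2 CPM (−1.30, SE 0.24), where 1.01% of all genes fell and 1.13% rose, a call lost without S5 library 2 (−0.98). Of 12 visceral endoderm markers 9 fell and none rose in each of these 2 groups, to sums of 967.2 and 1014 CPM without FGF4 and 1056 and 1704 CPM without XAV939. Without FGF4, 6 of 9 trophoblast markers also fell and none rose, from 638 and 585.7 CPM to 232.1 and 239.6 CPM.

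Because the omission groups share the full-medium libraries, aggregates without BMP4 were also set against the mean of the other 3 omissions. None of the 9 genes passed, where 0.271% of all genes did, while 5 of them, and 10.1% of all genes, had an unadjusted p under 0.05 and DESeq2 called none. Id3 was lower without BMP4 (−0.84, 95% interval −1.13 to −0.55, adjusted p = 0.00044 in edgeR's test), both libraries lying below all 6 others. Id1 was also lower (−0.60, −0.88 to −0.32, adjusted p = 0.013), with overlapping values, and Id2 stood at −0.46 (−0.75 to −0.17, adjusted p = 0.12). All 3 stayed short of the fold threshold. Mean Id3 was 22.91 CPM without BMP4 and 23.09 CPM in full medium. It was 43.15, 39.93 and 40.06 CPM without FGF4, Activin A and XAV939. Mean Id1 was 34.35 CPM without BMP4, 39.2 CPM in full medium, and 58.32, 66.99 and 36.24 CPM in those 3 groups. These differences therefore do not measure the omission of BMP4 alone. Among the other pathway genes Hand1 was higher without BMP4 than in that mean (1.40, SE 0.21), Cer1 was higher (1.81, SE 0.31) and Fst was lower (−1.40, SE 0.15). Against full S5 medium, none of the 52 other pathway genes rose or fell without BMP4. Hand1 fell without FGF4, and Cer1 fell and Fst rose without Activin A, and both groups enter the mean used here.

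Across the 20 groups of the second set, the 9 genes did not follow 1 order of levels. The group means were scaled together, and the counting of read pairs appears to differ between some of them. As a description, Pearson's r of log2 CPM over these means was 0.87 for Id1 and Id3, 0.81 for Id1 and Bambi and 0.79 for Bmp2 and Id2. It was 0.24 for Id2 and Id3, 0.55 for Msx1 and Msx2, 0.4 for Bmp2 and Bmp4, and −0.61 for Id3 and Smad6. Among 10949 other genes with at least 10 CPM in a group, the endoderm factor gene Foxa2 was most like Bmp2 (r = 0.91), followed by Amot (0.905) and Ubash3b (0.892). Dnttip2 (0.875), Chrna9 (0.861) and Rars (0.86) were most like Bmp4. Plekho1 (0.926), Ivns1abp (0.923) and Adgrl2 (0.922) were most like Id1, and the germ cell factor gene Sohlh2 (0.927), Zfat (0.916) and Ppp2r3a (0.915) were most like Msx2.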

How the data were processed

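The authors deposited raw counts per gene for 55291 genes in 52 libraries, whole numbers that were not scaled. Per the labels' protocols, poly(A) RNA was sequenced as paired reads. Per the submitters' processing notes, the tools were Trimmomatic 0.39, STAR 2.7.10b and featureCounts 2.0.6, with build mm10. The strand setting is not recorded in the labels used here. In 46 libraries 66.8% to 80.5% of small counts (1 to 10) were even, so both reads of a pair appear to have been counted. The share was 40.7% to 42.0% in the other 6, which are P25, P38 and EPSC libraries 3 and 4. Libraries held 16.6 to 108.3 M counts (median 41.25).

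Libraries were grouped by treatment label, with the EPSC libraries of each set kept apart. In edgeR 4.0.16 (R 4.3.3), filterByExpr left 25056 genes. A single quasi-likelihood fit with TMM scaling and 1 mean per group gave 30 contrasts. An SE is the log2 fold change divided by the square root of F. Counting intervals for ratios are exact, at 95%, on read pairs, and cover counting error only. A level per kilobase is CPM divided by the exon length in GENCODE M21. The method was tested on simulated data.

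The 9 genes, the list of 56 other BMP pathway genes (52 tested) and the marker lists were chosen with earlier results of these data known. All 9 genes may be named in any comparison. Of the other pathway genes, those changed could be named, at most 6 per comparison by adjusted p, and any at S5. The genes most like Bmp2, Bmp4, Id1 and Msx2 are the 3 with the highest r over 20 groups, on log2 of CPM plus 0.5, without predicted genes. Alternatives were RLE size factors, no filter, DESeq2 1.42.0, the libraries of the own family alone, a replicate block, each library left out, all EPSC libraries pooled and halved counts. After the data were seen, a newer edgeR option was added.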

Additional observations from a re-analysis of the deposited data

Results flagged for a closer look

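The response to 2 days of totipotency medium differed between mESCs and EPSCs, by the test of the difference itself, for 6 genes. On the log2 scale, mESC minus EPSC, the difference was 4.24 for Bmp4, 2.49 for Id1, −4.69 for Id2, 4.13 for Id3, −2.33 for Msx1 and −1.69 for Smad6. Bmp4, Id1 and Id3 started low in mESCs, at means of 1.73, 0.801 and 1.32 CPM, and the part of this start in the differences was not tested. The response at P25 differed from the 2-day response by 1.07 for Bambi, 3.26 for Bmp4 and 2.29 for Id1, with each response taken against the EPSC libraries of its own set. Those EPSC pairs carry the same label but had Bmp4 at 61.4 and 23.9 CPM and Id1 at 46.3 and 13.4 CPM. Msx2 without CHIR stood above full medium in both libraries at S2 (0.1 on the log2 scale) and below it in both at S3 (−0.22). Neither value passed its own test, and the difference between the stages was not tested.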

How the results depend on the processing

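Of 270 log2 fold changes (9 genes in 30 comparisons) 97 passed, and 72 of these did so under every alternative run for them. None of the called values changed sign. Where the number of the 9 genes that passed moved by over 1.5 times, the values were as follows. For Elvitegravir it was 0 in place of 1 with halved counts, the newer edgeR option, DESeq2 and the own family alone, and for S1 against CHIR with CD1530 it was 2 in place of 1 with the own family alone. With 1 library left out the number ran from 0 to 1 for Elvitegravir, for P38 against P25 and for S5 without XAV939, and from 0 to 2 for S3 without Birabresib and S5 without Activin A. It ran from 1 to 2 for S1 against CHIR with CD1530, S3 against S2, S2 without 8Br-cAMP, Birabresib or CD1530, and the mean of the S3 omissions, and from 1 to 3 for S5 without FGF4. In these fits a lone library was assumed to vary like the other groups, and the dispersion trend of the full fit was kept. The cause was not tested.

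Over all genes, Elvitegravir changed 2 genes, against 142 without the filter, 43 with DESeq2, 110 with a replicate block, 0 with halved counts, the newer option or the own family alone, and 0 to 1562 with 1 library left out. S5 without BMP4 changed 14, against 36 without the filter, 32 with the newer option, 22 with DESeq2 (9 up, 13 down), 0 with the own family alone and 0 to 108 with 1 library left out. Set against the other S5 omissions it changed 68, or 108 without the filter, 117 with the newer option, 32 with the own family alone and 38 to 125 with 1 library left out. P38 against P25 gave 85, or 145 with halved counts, 165 with the own family alone and as few as 45 with 1 library left out. CHIR against EPSCs gave 4673, or 7564 with the EPSC libraries pooled, and the P25 against the 2-day response 2331, or 7517. S5 without XAV939 gave 536, or 821 with the newer option and 182 to 991 with 1 library left out. Leaving out 1 library gave 385 in place of 664 for the mean of the S3 omissions and 366 in place of 746 for S2 without Birabresib.

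Replicates of different groups share only a number. Their differences correlated with r from −0.03 to 0.06, except 0.43 between PD0325901 and CHIR, and the replicate block changed no call among the 9 genes. It could not be fitted where EPSC libraries 3 and 4 enter. Bmp2, Msx1 and Msx2 rested on few counts in EPSCs and mESCs (2 in the lowest library), which limits their folds there. Msx2, with the largest folds, had 32 and 22 counts in EPSC libraries 1 and 2, 3 and 11 in libraries 3 and 4, and 12 in each mESC library.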
